A study of Mus musculus with 16 samples.

Results

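Protein kinase A (PKA) is described here through 9 mouse genes, which encode 3 heat-stable inhibitors (Pkia, Pkib, Pkig), 2 catalytic subunits (Prkaca, Prkacb) and 4 regulatory subunits (Prkar1a, Prkar1b, Prkar2a, Prkar2b). Of the 25745 genes in the count table, 8 belong to this family. Pkib has no row there and was not analysed here. The family was chosen by the values of Pkia, which had been seen to be absent from empty-vector cells, and the other genes were then taken by name as its partners. The difference of Pkia between vectors is therefore a description with no test.

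The 16 RNA-seq libraries come from 6DT1 cells, a mammary cancer cell line of mouse strain FVB/N1, in 4 groups of 4 libraries. Libraries 13 to 16 were empty-vector cells given 1 µM hydrogen peroxide (H2O2), an oxidant, for 24 h, and libraries 9 to 12 were untreated empty-vector cells. Libraries 5 to 8 were cells given a lentivirus that carries CLIC4, a chloride intracellular channel family protein, and then 1 µM H2O2 for 24 h, and libraries 1 to 4 were untreated cells with that lentivirus. The labels conflict on genotype, since the sample descriptions name the empty-vector cells CLIC4-Knockout and the lentivirus cells wild type, while titles and series text name only vectors. The labels do not say whether each vector is represented by 1 clone or a pool, and they do not call the 4 libraries of a group separate cultures. P-values therefore reflect the spread among the sequenced samples alone, and that spread may be technical.

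The kinase is held inactive as a complex in which a pair of regulatory subunits covers the catalytic subunits. Binding of cyclic AMP (cAMP), made by adenylyl cyclases and removed by phosphodiesterases, frees the catalytic subunits to phosphorylate their targets, among them the transcription factor CREB. The inhibitor proteins bind free catalytic subunits as pseudosubstrates and help to carry them out of the nucleus. In mammary epithelium this pathway acts downstream of receptors that couple to stimulatory G proteins.

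Total counts ran between 47.1 M and 61.9 M per library. Clic4 averaged 42.4 ± 2.35 CPM (counts scaled to library depth) in H2O2-treated and 66.3 ± 47.8 CPM in untreated empty-vector cells, against 243 ± 12.9 CPM in H2O2-treated and 229 ± 10.4 CPM in untreated lentivirus cells (SD, n = 4 each). Clic4 stood at 138 CPM in library 11, and the other 3 untreated empty-vector libraries averaged 42.5 ± 1.93 CPM. CPM here is scaled by TMM, which corrects for differences in library composition. One untreated empty-vector library, library 11, was unlike the other 15. Its correlation with the other 3 libraries of its group, over genes on the log2(CPM + 1) scale, ran between 0.925 and 0.9258, while all other pairs within groups lay between 0.9978 and 0.999. Of 11603 genes with at least 1 CPM, library 11 was above the mean of libraries 9, 10 and 12 by 2-fold or more in 15.5% and below it by 2-fold or more in 23.1%. Its TMM factor was 0.7211, against 0.9861 to 1.0399 in the other 15 libraries. The tests of the PKA genes between vectors, and the other values that library 11 moved most, are also given without it. Among luminal epithelial markers, Krt8, Krt18 and Krt19 passed the filter on low counts and the other 5 of 8, Epcam and Cdh1 among them, did not.

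Pkia, which encodes the alpha form of the inhibitor, had 0 counts in each of the 8 empty-vector libraries. The H2O2-treated lentivirus libraries 5 to 8 held 481, 544, 488 and 586 counts of it, or 9.05, 9.81, 8.56 and 9.32 CPM. The untreated lentivirus libraries 1 to 4 held 521, 561, 491 and 433 counts, or 9.30, 9.65, 8.68 and 9.33 CPM. Every lentivirus library was thus far above every empty-vector library, and the 2 lentivirus groups overlapped. Set against a floor of 3 counts over a group, Pkia was at least 706-fold lower in H2O2-treated and at least 641-fold lower in untreated empty-vector cells than in lentivirus cells with the same treatment. The floor covers counting error only. In bulk samples, fewer cells that express a gene and less of its RNA per cell cannot be told apart. Between H2O2-treated and untreated lentivirus cells the log2 change of Pkia was -0.01 ± 0.101 (SE), with an adjusted p of 1 by edgeR's quasi-likelihood test.

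Pkig, the gamma inhibitor, was the other inhibitor gene measured. It stood at 18.2, 19.8, 19.1 and 17.7 CPM in H2O2-treated empty-vector libraries 13 to 16, against 15.7, 16.0, 16.6 and 15.0 CPM in H2O2-treated lentivirus libraries 5 to 8. In untreated cells it stood at 18.7, 21.2, 13.6 and 19.2 CPM in empty-vector libraries 9 to 12, against 14.9, 15.4, 15.1 and 17.4 CPM in lentivirus libraries 1 to 4. The treated groups did not overlap, and the untreated groups overlapped through library 11 (13.6 CPM). The difference did not pass the test with all 16 libraries (log2 change 0.24 ± 0.111, adjusted p = 0.0959 by edgeR in treated cells, and 0.21 ± 0.111, adjusted p = 0.121 in untreated cells). Without library 11, Pkig was higher in empty-vector cells, by 0.24 ± 0.0572 (adjusted p = 0.000757) in treated and 0.33 ± 0.0616 (adjusted p = 7.73e-05) in untreated cells on the log2 scale.

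Levels of different genes were compared per transcript length, as FPKM, which divides fragments by transcript length and library depth. Pkig was the more abundant inhibitor in every library. It averaged 24.4 ± 1.34 FPKM in H2O2-treated and 22.4 ± 6.95 FPKM in untreated empty-vector cells, against 20.6 ± 1.17 FPKM in H2O2-treated and 20.1 ± 1.20 FPKM in untreated lentivirus cells (SD, n = 4 each). Pkia averaged 2.74 ± 0.137 FPKM in H2O2-treated and 2.93 ± 0.299 FPKM in untreated lentivirus cells. That was 11.8% ± 0.945 and 12.7% ± 0.92 of the FPKM of both inhibitors. Counts, which carry no length term, would put this share at 36.7% in treated and 37.1% in untreated cells. The sum of both inhibitors overlapped between vectors, at 23.0 to 26.1 FPKM in H2O2-treated empty-vector cells against 21.9 to 24.5 FPKM in H2O2-treated lentivirus cells, and at 12.3 to 28.0 FPKM in untreated empty-vector cells against 21.5 to 24.8 FPKM in untreated lentivirus cells. Library 11 had the lowest sum (12.3 FPKM).

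**Figure D1:**
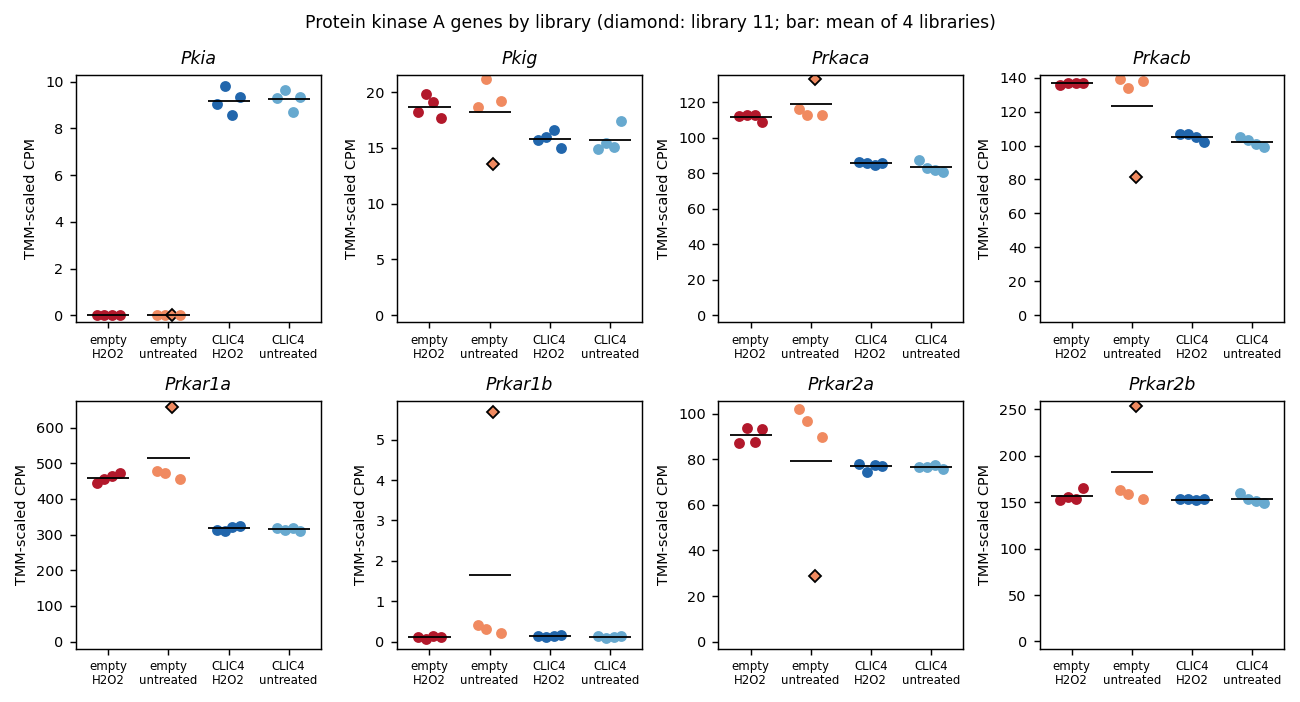
TMM-scaled CPM (vertical axes, linear) of the 8 measured PKA genes in each library of the 4 groups (horizontal axes), with a bar at the mean of 4 libraries and a diamond for library 11. Pkia is at 0 in both empty-vector groups and between 8.56 and 9.81 CPM in lentivirus cells, Prkaca and Prkar1a are higher in every empty-vector library than in any lentivirus library, and library 11 lies away from its group for most genes.

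Outside Pkia, 7 family members had a tested difference between vectors. In H2O2-treated cells 3 of the 7 passed the test, Prkaca, Prkacb and Prkar1a, all higher in empty-vector cells. In untreated cells 3 of 7 passed, Prkaca, Prkar1a and Prkar1b, again all higher. Prkar1b passed the filter on low counts only through the untreated empty-vector libraries, so it had to be higher there, which leaves 2 tested calls in untreated cells. Without library 11, 5 of 7 in treated and 6 of 7 in untreated cells were higher, Prkar1b being among the 6. No member was called lower in either fit. Over all 14445 genes tested, 22.1% were called higher and 20.0% lower in treated cells, and 29.0% higher and 24.3% lower in untreated cells. Without library 11 the shares of 14602 genes were 36.6% higher and 37.2% lower in treated cells, and 37.0% higher and 37.3% lower in untreated cells. The family was picked from this contrast, so nothing is read from its count against these shares. The median log2 change of all genes was -0.01 in treated and 0.03 in untreated cells.

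Prkaca encodes the alpha catalytic subunit. It had 112, 113, 113 and 109 CPM in H2O2-treated empty-vector libraries 13 to 16, against 86.1, 86.0, 84.6 and 85.7 CPM in H2O2-treated lentivirus libraries 5 to 8. Without treatment it had 116, 113, 133 and 113 CPM in empty-vector libraries 9 to 12, against 87.3, 82.9, 82.0 and 80.8 CPM in lentivirus libraries 1 to 4. The vectors did not overlap in either treatment, and the library at 133 CPM was library 11. Prkaca was higher in empty-vector cells by 0.39 ± 0.0559 (adjusted p = 5.33e-05 by edgeR) in treated and 0.51 ± 0.0559 (adjusted p = 3.23e-06) in untreated cells on the log2 scale. Without library 11 the untreated difference was 0.46 ± 0.0296 (adjusted p = 3.11e-11). A processed pseudogene of Prkaca lies on chromosome X and is not among the genes counted, so any reads shared with it could affect the counts of Prkaca.

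Prkacb encodes the beta catalytic subunit. It had 136, 137, 137 and 137 CPM in H2O2-treated empty-vector libraries 13 to 16, against 107, 107, 105 and 102 CPM in H2O2-treated lentivirus libraries 5 to 8. The untreated values were 139, 134, 81.3 and 138 CPM in empty-vector libraries 9 to 12, against 105, 103, 101 and 98.9 CPM in lentivirus libraries 1 to 4. Library 11, at 81.3 CPM, was below all lentivirus libraries, and the other 7 empty-vector libraries were above them all. The treated difference was 0.37 ± 0.125 on the log2 scale (adjusted p = 0.0256 by edgeR). This call was lost when library 7, 8, 14 or 16 was left out (adjusted p = 0.0549, 0.0627, 0.0511 and 0.0514), with the change at 0.36 to 0.37. The untreated difference, 0.28 ± 0.125, did not pass (adjusted p = 0.0751). Without library 11 both passed, at 0.37 (adjusted p = 1.09e-10) in treated and 0.43 ± 0.0284 (adjusted p = 4.12e-11) in untreated cells.

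Per length, Prkaca was the more abundant catalytic transcript. Its share of catalytic FPKM was 61.6% ± 0.456 in H2O2-treated empty-vector cells, against 61.8% ± 0.525 in H2O2-treated lentivirus cells (SD, n = 4 each). In untreated cells it was 62.0% ± 0.302 in empty-vector libraries 9, 10 and 12 and 76.4% in library 11, against 61.9% ± 0.312 in lentivirus cells. Apart from library 11, the shares of all groups lay within 60.9% and 62.6%. The catalytic sum was higher in each H2O2-treated empty-vector library, at 89.8 to 91.9 FPKM, than in any H2O2-treated lentivirus library, at 67.4 to 69.8 FPKM. In untreated cells it was 90.7 to 93.9 FPKM in empty-vector libraries 9, 10 and 12 and 60.6 FPKM in library 11, against 62.6 to 69.1 FPKM in lentivirus cells.

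Prkar1a, the type I alpha regulatory subunit and the gene mutated in human Carney complex, was the most abundant family member per transcript length. It had 446, 457, 465 and 472 CPM in H2O2-treated empty-vector libraries 13 to 16, against 313, 311, 321 and 324 CPM in H2O2-treated lentivirus libraries 5 to 8. In untreated cells it had 479, 472, 658 and 456 CPM in empty-vector libraries 9 to 12, against 318, 312, 319 and 310 CPM in lentivirus libraries 1 to 4. All 8 empty-vector libraries were above all 8 lentivirus libraries, and library 11 was the highest of all at 658 CPM. The log2 difference was 0.54 ± 0.0916 (adjusted p = 0.00025 by edgeR) in treated and 0.71 ± 0.0918 (adjusted p = 1.8e-05) in untreated cells. Without library 11 these were 0.54 (adjusted p = 6.22e-13) and 0.58 ± 0.0292 (adjusted p = 7.22e-13).

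Prkar2a and Prkar2b encode the type II regulatory subunits, which bind A-kinase anchoring proteins and so place the kinase in the cell. Prkar2a had 87.2, 93.9, 87.6 and 93.5 CPM in H2O2-treated empty-vector libraries 13 to 16, against 78.1, 74.6, 77.5 and 77.2 CPM in H2O2-treated lentivirus libraries 5 to 8. Without H2O2 it had 102, 96.9, 28.7 and 90.0 CPM in empty-vector libraries 9 to 12, against 76.7, 76.5, 77.3 and 75.6 CPM in lentivirus libraries 1 to 4. The vectors did not overlap apart from library 11, which at 28.7 CPM was the lowest library. With all 16 libraries the log2 difference of Prkar2a did not pass the test, at 0.24 ± 0.258 (adjusted p = 0.506 by edgeR) in treated and 0.05 ± 0.258 (adjusted p = 0.875) in untreated cells. Without library 11 Prkar2a was higher in empty-vector cells by 0.24 ± 0.0357 (adjusted p = 5.94e-06) in treated and 0.33 ± 0.0384 (adjusted p = 1.92e-07) in untreated cells.

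Prkar2b had 152, 156, 154 and 165 CPM in H2O2-treated empty-vector libraries 13 to 16, against 153, 153, 152 and 153 CPM in H2O2-treated lentivirus libraries 5 to 8. Without treatment it had 163, 159, 254 and 153 CPM in empty-vector libraries 9 to 12, against 160, 153, 151 and 149 CPM in lentivirus libraries 1 to 4. The vectors overlapped in both treatments, and library 11 was the highest library at 254 CPM. The difference of Prkar2b did not pass in either fit. Its log2 change was 0.04 ± 0.124 (adjusted p = 0.827 by edgeR) in treated and 0.25 ± 0.124 (adjusted p = 0.104) in untreated cells, and 0.04 (adjusted p = 0.224) and 0.05 ± 0.0329 (adjusted p = 0.212) without library 11.

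Prkar1b, the type I beta regulatory subunit, was close to the limit of detection. It had 7, 4, 8 and 6 counts in H2O2-treated empty-vector libraries 13 to 16, against 8, 7, 8 and 10 counts in H2O2-treated lentivirus libraries 5 to 8. The untreated values were 23, 18, 219 and 11 counts in empty-vector libraries 9 to 12, against 8, 5, 7 and 7 counts in lentivirus libraries 1 to 4. The untreated empty-vector libraries were above all others, library 11 most of all. The gene passed the filter on low counts only through these 4 libraries, so it had to differ there, and its untreated log2 difference of 3.67 ± 0.925 (adjusted p = 0.00432 by edgeR), or 1.28 ± 0.33 (adjusted p = 0.00172) without library 11, is given as a description. Another gene on the same strand, Gm15672, overlaps Prkar1b and held 10 to 37 counts, so reads may be split between them.

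**Figure D2:**
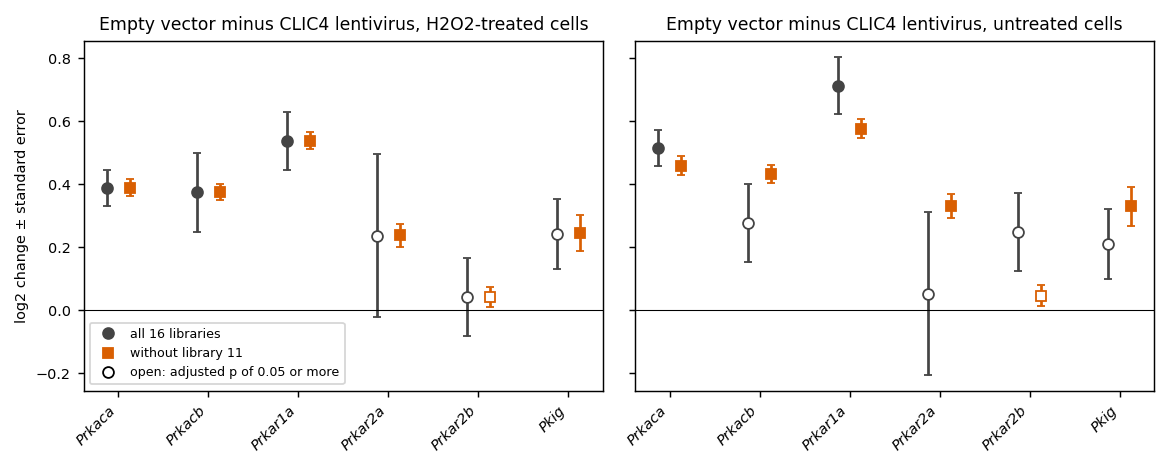
Log2 change, empty vector minus CLIC4 lentivirus, with its standard error (vertical axis), for 6 PKA genes (horizontal axis) in H2O2-treated and untreated cells, from the fit with all 16 libraries (circles) and without library 11 (squares). Filled symbols passed the test at an adjusted p under 0.05. Error bars are shorter without library 11, and Prkar2b is open in both fits. Pkia and Prkar1b are not drawn.

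The make-up of the regulatory transcripts differed between vectors. Prkar1a took 66.8% ± 0.66 of regulatory FPKM in H2O2-treated and 66.6% ± 0.527 in untreated empty-vector cells, against 59.5% ± 0.404 in H2O2-treated and 59.2% ± 0.867 in untreated lentivirus cells (SD, n = 4 each). Prkar2b took 24.2% ± 0.467 in H2O2-treated and 25.5% ± 3.08 in untreated empty-vector cells, against 30.7% ± 0.42 in H2O2-treated and 30.8% ± 0.44 in untreated lentivirus cells. The shares of Prkar1a did not overlap between vectors, the lowest empty-vector library being at 66.0% and the highest lentivirus library at 60.1%. Library 11 had a Prkar2b share of 30.1%, and the other 3 untreated empty-vector libraries averaged 24.0% ± 0.186. Prkar2a took 8.89% ± 0.286 in H2O2-treated and 7.51% ± 3.63 in untreated empty-vector cells, against 9.68% ± 0.25 in H2O2-treated and 9.89% ± 0.498 in untreated lentivirus cells. Its share was 2.1% in library 11 and averaged 9.32% ± 0.458 in the other 3 untreated empty-vector libraries. Those 3, at 8.8% to 9.65%, overlapped the untreated lentivirus libraries, at 9.6% to 10.6%. Prkar1b stayed below 1% of regulatory FPKM in every library.

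The ratio of regulatory to catalytic FPKM was 2.49 ± 0.0864 in H2O2-treated empty-vector cells, against 2.52 ± 0.0657 in H2O2-treated lentivirus cells (SD, n = 4 each). In untreated cells it was 2.51 ± 0.083 in empty-vector libraries 9, 10 and 12 and 3.83 in library 11, against 2.59 ± 0.0409 in lentivirus cells. The ratio of inhibitor to catalytic FPKM was lower in each empty-vector library than in any lentivirus library, at 0.256 to 0.285 in H2O2-treated empty-vector cells against 0.325 to 0.361 in H2O2-treated lentivirus cells, and at 0.203 to 0.309 in untreated empty-vector cells against 0.331 to 0.395 in untreated lentivirus cells. Since Pkia is part of this ratio and chose the family, its difference is a description. RNA ratios do not give the ratio of the proteins.

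**Figure D3:**
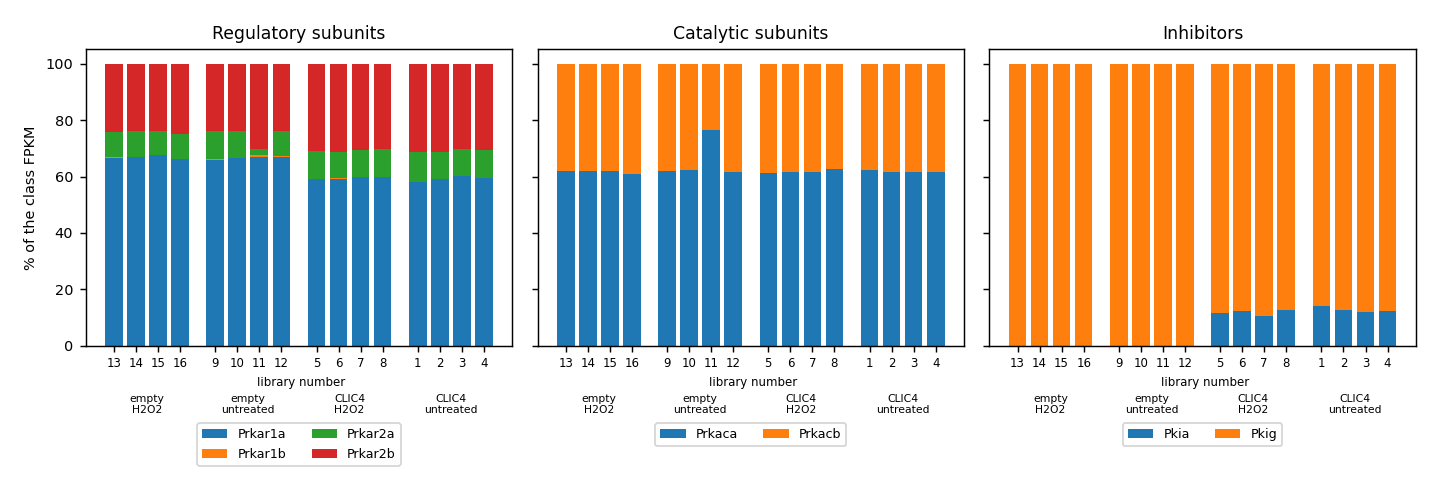
Share of each gene in the FPKM of its class (vertical axis, %) for the regulatory, catalytic and inhibitor genes, in each of the 16 libraries (horizontal axis, by group). Prkar1a takes the larger share of regulatory FPKM in empty-vector libraries, Prkaca takes 60.9% to 62.6% of catalytic FPKM outside library 11 and 76.4% in it, and Pkia appears only in lentivirus libraries, at 10.5% to 14.0% of inhibitor FPKM.

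H2O2 gave no call among the PKA genes in either kind of cell by edgeR. Prkar1b is part of the counts below, but its values in empty-vector cells and in the difference of responses are a description, since it entered the fit through the untreated empty-vector group alone. In empty-vector cells 0 of 7 members passed in H2O2-treated against untreated cells, beside 0% of all genes with 16 libraries by edgeR. At an unadjusted p under 0.05 there were 1 member, Prkar1b, and 2120 of all genes. Without library 11, 0 of 7 passed (2 at an unadjusted p under 0.05, Prkar1b and Prkar2a), beside 0.240% of all genes (35 genes). In lentivirus cells 0 of 8 members passed with or without library 11, and 0 had an unadjusted p under 0.05. Of all genes, 0% were called there in both fits, with 255 genes at an unadjusted p under 0.05 with 16 libraries and 2135 without library 11. For the difference of the H2O2 responses between empty-vector and lentivirus cells, 0 of 7 members passed in either fit (Prkar1b alone at an unadjusted p under 0.05), where 0% of all genes were called with 16 libraries (859 at an unadjusted p under 0.05) and 0.192% without library 11. DESeq2 also called 0 members in these comparisons. Limma voom with library quality weights gave an adjusted p under 0.05 for Prkar1b alone, in empty-vector cells, where 121 of all 14445 genes passed.

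For 7 members other than Prkar1b the treated and untreated groups overlapped in each kind of cell, or were both at 0. Without library 11, the log2 change in empty-vector cells was -0.03 ± 0.0295 for Prkaca, -0.01 ± 0.0284 for Prkacb and -0.03 ± 0.0293 for Prkar1a, with adjusted p values of 0.749, 0.949 and 0.776 by edgeR. Prkar2a, at -0.09 ± 0.0383 (adjusted p = 0.308), and Pkig, at -0.07 ± 0.0609 (adjusted p = 0.675), also missed. In lentivirus cells the changes of the same 5 genes lay between 0.01 and 0.05 without library 11, with adjusted p values of 0.411 to 0.967. Prkar1b was lower in every H2O2-treated than in every untreated empty-vector library with a log2 change of -3.87 ± 0.935, or -1.48 ± 0.334 without library 11, in the direction that the filter fixed. A p that misses the threshold does not show that H2O2 left these genes alike.

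Library 11 moved the family members in different directions. Relative to the mean of libraries 9, 10 and 12 its CPM was 0.299 times for Prkar2a, 0.592 times for Prkacb and 0.691 times for Pkig, and 1.4 times for Prkar1a, 1.61 times for Prkar2b and 18.6 times for Prkar1b. The FPKM ratios ran lower, with 0.225 for Prkar2a, 0.407 for Prkacb, 0.476 for Pkig, 1.01 for Prkar1a, 1.26 for Prkar2b and 3.23 for Prkar1b. Prkaca changed direction with the scaling, at 1.16 times in CPM and 0.81 times in FPKM. Pkia stayed at 0 counts. The cause of the departure of library 11 was not tested.

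**Figure D4:**
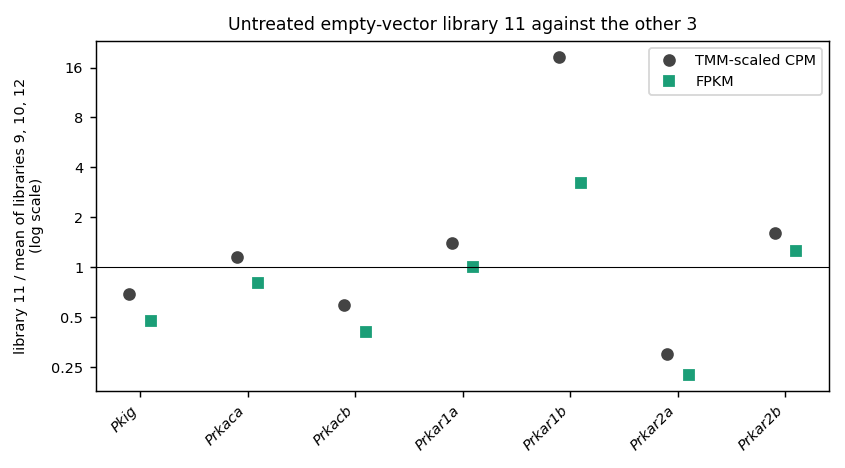
Level in library 11 divided by the mean of libraries 9, 10 and 12 (vertical axis, log scale) for 7 PKA genes (horizontal axis), from TMM-scaled CPM (circles) and FPKM (squares). Prkar2a, Prkacb and Pkig lie below 1 and Prkar1b and Prkar2b above 1 on both scales, and Prkaca lies on different sides.

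The promoters of the 3 subunit genes that were higher in treated empty-vector cells are shown because CREB binds the sequence TGACGTCA or its shorter core, TGACG or CGTCA on the other strand. The sequences are the 250 bases before an annotated start site, 5′ to 3′, from RefSeq (GRCm38.p6), with full elements and cores in capitals. For each gene the start site was chosen because its window holds a match, the one with the match farthest upstream being taken. Prkar1a is at chr11:109650699-109650948 on the plus strand, Prkaca at chr8:83972728-83972977 on the plus strand and Prkacb at chr3:146812947-146813196 on the minus strand.
Prkar1a: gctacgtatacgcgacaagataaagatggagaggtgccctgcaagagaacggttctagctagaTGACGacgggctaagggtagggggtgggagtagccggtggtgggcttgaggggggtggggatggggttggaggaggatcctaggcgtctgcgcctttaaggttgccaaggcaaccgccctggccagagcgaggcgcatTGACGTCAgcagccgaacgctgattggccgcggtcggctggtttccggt
Prkaca: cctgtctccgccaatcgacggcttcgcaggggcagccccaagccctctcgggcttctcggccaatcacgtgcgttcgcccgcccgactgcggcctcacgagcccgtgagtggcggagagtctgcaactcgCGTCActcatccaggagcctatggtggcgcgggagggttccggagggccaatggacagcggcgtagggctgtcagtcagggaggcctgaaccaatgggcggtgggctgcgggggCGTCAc
Prkacb: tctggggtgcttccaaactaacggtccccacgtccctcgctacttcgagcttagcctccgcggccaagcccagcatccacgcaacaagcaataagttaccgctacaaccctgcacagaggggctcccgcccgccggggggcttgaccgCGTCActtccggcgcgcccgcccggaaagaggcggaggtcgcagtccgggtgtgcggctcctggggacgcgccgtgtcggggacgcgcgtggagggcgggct

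In Prkar1a the full element starts 49 bases and a core 187 bases before the start site. Prkaca has cores that start 120 and 6 bases before its start, and Prkacb has one that starts 102 bases before. Over windows of 300 bases, which reach 50 bases past the start, 1.79% of 32851 RefSeq promoter windows hold TGACGTCA and 20.8% hold a core on either strand, the full element being counted in both. The family has 24 windows over 8 genes, of which 2 overlapping windows of Prkar1a hold the full element and 8 hold a core. A core lies in 3 of 6 Prkar1a, 1 of 2 Prkaca and 1 of 3 Prkacb windows. Pkig, Prkar1b and Prkar2a, which are not shown, have a window with a core too. Which start site these cells use was not measured, and a match is a description of the letters.

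The genes with the pattern most like Pkia over the 16 libraries, by Pearson correlation of log2(CPM + 0.1), were Lpl (0.99939), Ssbp2 (0.99893), Ctla2a (0.99881), Cdh5 (0.99851) and Fhit (0.99802). The libraries fall into the 2 vectors, so each coefficient rests mostly on that split and carries no p. Ctla2a, a cysteine protease inhibitor gene, had 2 counts over the H2O2-treated and 2 over the untreated empty-vector libraries, against 1358 over the H2O2-treated and 1503 over the untreated lentivirus libraries. Lpl, which encodes lipoprotein lipase, had 8.02 to 8.73 CPM in H2O2-treated empty-vector cells against 331 to 340 CPM in H2O2-treated lentivirus cells. In untreated cells Lpl had 7.57 to 10.3 CPM with the empty vector against 319 to 333 CPM with the lentivirus. Cdh5, an endothelial cadherin gene, averaged 3.56 ± 0.44 CPM in H2O2-treated empty-vector cells against 83.1 ± 1.80 CPM in H2O2-treated lentivirus cells. In untreated cells Cdh5 averaged 3.77 ± 0.485 CPM with the empty vector against 82.0 ± 2.25 CPM with the lentivirus (SD, n = 4 each).

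Pkia lies on chromosome 3 at bases 7366669 to 7445366 of mm10, on the plus strand. Zc2hc1a and Il7, the nearest genes past the filter above it, differed in the same direction as Pkia. Zc2hc1a, 0.0581 Mb away, averaged 41.6 ± 1.36 CPM in H2O2-treated and 36.0 ± 11.6 CPM in untreated empty-vector cells, against 62.7 ± 1.34 CPM in H2O2-treated and 63.5 ± 0.787 CPM in untreated lentivirus cells. It was lower in empty-vector cells at an adjusted p of 0.0162 by edgeR in treated and 0.00184 in untreated cells, and without library 11 its untreated empty-vector mean was 41.8 ± 2.51 CPM. Il7, the gene of interleukin 7, 0.125 Mb away, averaged 0.104 CPM in H2O2-treated and 0.0696 CPM in untreated empty-vector cells, against 1.09 CPM in H2O2-treated and 1.06 CPM in untreated lentivirus cells. Il7 passed the filter only through lentivirus libraries, so its difference is a description. Mrps28, a mitochondrial ribosomal protein gene 1.36 Mb away, did not pass (log2 change 0.02, adjusted p = 0.895 in treated and 0.05, adjusted p = 0.662 in untreated cells). Below Pkia the nearest genes past the filter lay 1.62 to 1.95 Mb away. Of these, Zfhx4 was lower in empty-vector cells in both treatments (adjusted p = 7.51e-05 and 0.0127), Pex2 in untreated cells at an adjusted p of 0.0498, and Gm8797 in neither. Without library 11 all 3 were lower in both treatments, Gm8797 by -0.37 (adjusted p = 1.55e-07) in treated and -0.39 (adjusted p = 3.11e-07) in untreated cells. Over all genes 20.0% were called lower in treated and 24.3% in untreated cells, or 37.2% and 37.3% without library 11.

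The rest of the cAMP pathway was followed through lists of genes taken by name. The counts of called genes stand beside the shares over all genes, 22.1% higher and 20.0% lower in treated and 29.0% higher and 24.3% lower in untreated cells, or 36.6% to 37.3% in each direction without library 11, and several are near these shares. Adcy5, Rapgef4, Popdc3, Vgf and Ppargc1a passed the filter through the libraries of 1 vector alone, so they had to differ and add nothing to the counts they are part of. Adcy10 reached the filter's cutoff in 7 empty-vector libraries and 1 lentivirus library, so it adds nothing to the higher cyclases either. Among adenylyl cyclases, 5 of the 10 listed were tested, and 2 were higher and 1 lower in empty-vector cells in both treatments. Without library 11, 6 were tested, with 2 higher and 4 lower in treated and 2 higher and 1 lower in untreated cells. Adcy10, the soluble cyclase, had 114 counts over the H2O2-treated and 83 over the untreated empty-vector libraries, against 24 over the H2O2-treated and 22 over the untreated lentivirus libraries. Adcy6, a membrane cyclase, averaged 106 ± 4.08 CPM in H2O2-treated empty-vector cells against 86.3 ± 1.22 CPM in H2O2-treated lentivirus cells, and 113 ± 18.4 CPM against 82.1 ± 3.32 CPM in untreated cells of these vectors (104 ± 4.90 CPM in the empty-vector cells without library 11, n = 3). Adcy5 had 1 count over the H2O2-treated and 2 over the untreated empty-vector libraries, against 32 over the H2O2-treated and 52 over the untreated lentivirus libraries. Of 5 G protein alpha subunits tested, 0 were higher and 1 lower in treated and 1 higher and 1 lower in untreated cells, against 2 and 2 in treated and 1 and 2 in untreated cells without library 11. Gnaz, an inhibitory subunit gene, was lower in empty-vector cells, at 0.211 ± 0.0853 CPM against 2.03 ± 0.265 CPM in treated cells and 0.394 ± 0.389 CPM against 1.78 ± 0.193 CPM in untreated cells. Without library 11 its untreated empty-vector mean was 0.205 ± 0.116 CPM and its untreated log2 change -3.10 in place of -2.23. Gnai2, another inhibitory subunit gene, was higher in untreated empty-vector cells (log2 change 0.32, adjusted p = 0.00235 by edgeR) and missed in treated cells (0.15, adjusted p = 0.125), and it passed in both treatments without library 11.

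Of 7 cAMP phosphodiesterases tested, 2 were lower and 1 higher in empty-vector cells after H2O2, and 3 were lower and 0 higher in untreated cells. Without library 11, 3 were lower and 1 higher in both treatments. Pde4d, a cAMP-specific enzyme gene, averaged 3.65 ± 0.258 CPM in H2O2-treated and 3.31 ± 1.44 CPM in untreated empty-vector cells, against 8.28 ± 0.475 CPM in H2O2-treated and 7.83 ± 0.276 CPM in untreated lentivirus cells. Pde1b, the gene of a calmodulin-dependent enzyme, averaged 10.3 ± 0.64 CPM in H2O2-treated and 8.57 ± 2.86 CPM in untreated empty-vector cells, against 18.9 ± 0.885 CPM in H2O2-treated and 17.5 ± 0.902 CPM in untreated lentivirus cells. Both passed the test in both treatments, Pde4d with log2 changes of -1.18 (adjusted p = 0.0022 by edgeR) and -1.23 (0.00142) and Pde1b with -0.88 (0.00184) and -1.03 (0.000515). Without library 11 the untreated changes were -0.96 for Pde4d and -0.81 for Pde1b, and the empty-vector means there were 4.03 ± 0.142 and 9.97 ± 0.733 CPM (n = 3). Pde8a, a high-affinity cAMP enzyme gene, passed in untreated cells (-1.14, adjusted p = 0.0134) and missed in treated cells (-0.83, adjusted p = 0.0683), where it passed without library 11 (-0.83, adjusted p = 6.57e-13). The untreated change of Pde8a was -0.81 without library 11.

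Of 13 A-kinase anchoring protein genes tested, 4 were higher in H2O2-treated and 6 in untreated empty-vector cells, and 0 were lower in either. With library 11 left out, 3 were lower in each treatment and the numbers of higher genes stayed at 4 and 6. Ezr, the ezrin gene, averaged 255 ± 6.43 CPM in H2O2-treated and 369 ± 224 CPM in untreated empty-vector cells, against 140 ± 4.48 CPM in H2O2-treated and 139 ± 1.36 CPM in untreated lentivirus cells. Akap2 averaged 156 ± 5.15 CPM in H2O2-treated and 192 ± 44.0 CPM in untreated empty-vector cells, against 110 ± 1.59 CPM in H2O2-treated and 105 ± 1.83 CPM in untreated lentivirus cells. Both differences passed in both treatments. Without library 11 the untreated empty-vector means were 257 ± 7.13 CPM for Ezr and 170 ± 2.31 CPM for Akap2 (n = 3), and the untreated log2 changes were 0.89 and 0.70 in place of 1.41 and 0.87. Akap12, the gravin gene, was also higher in both (log2 change 0.74, adjusted p = 0.000573 by edgeR in treated and 0.70, adjusted p = 0.000732 in untreated cells). Akap13 passed in untreated cells (1.38, adjusted p = 0.00556) and missed in treated cells (0.12, adjusted p = 0.815), and its untreated change was 0.64 (adjusted p = 0.000796) without library 11. Pja2, a ubiquitin ligase gene whose protein acts on regulatory subunits, was higher in untreated cells (0.54, adjusted p = 0.00635) and missed in treated cells (0.18, adjusted p = 0.342), where it passed without library 11 (0.18, adjusted p = 9.45e-06). The untreated change of Pja2 was 0.29 without library 11. The other 2 partners tested, Gpr161 and Ppp1r1b, ran the other way and are named after their values were seen. In treated cells Gpr161 was lower by -0.43 (adjusted p = 0.0011), and without library 11 it was lower in both treatments. Ppp1r1b, at -3.95 in treated cells (adjusted p = 0.00783), was also called lower in both treatments without library 11. It reached the cutoff of the filter on low counts in only 1 empty-vector and 3 lentivirus libraries, so its values are a description.

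Genes of other cAMP effectors and of cyclic nucleotide kinases formed a list of 6 tested genes, of which 4 were higher and 0 lower in empty-vector cells in both treatments, with or without library 11. Rapgef3, which encodes a cAMP-gated exchange factor for Rap, averaged 39.7 ± 3.20 CPM in H2O2-treated and 37.7 ± 3.78 CPM in untreated empty-vector cells, against 13.9 ± 1.00 CPM in H2O2-treated and 12.7 ± 0.362 CPM in untreated lentivirus cells. Its relative Rapgef4 had 107 counts over the H2O2-treated and 95 over the untreated empty-vector libraries, against 0 over the H2O2-treated and 1 over the untreated lentivirus libraries. Popdc3, of the Popeye family of cAMP-binding membrane proteins, had 1713 counts over the H2O2-treated and 1426 over the untreated empty-vector libraries, against 4 over the H2O2-treated and 17 over the untreated lentivirus libraries. Prkg2, a cGMP-dependent kinase gene, averaged 85.0 ± 8.36 CPM in H2O2-treated and 74.3 ± 23.7 CPM in untreated empty-vector cells, against 21.7 ± 1.44 CPM in H2O2-treated and 22.9 ± 0.60 CPM in untreated lentivirus cells, and 85.8 ± 6.62 CPM in untreated empty-vector cells without library 11. Rapgef4 and Popdc3 thus ran opposite to Pkia, being at or near 0 in lentivirus cells.

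Among 8 genes of the CREB family and its coactivators, 0 were higher in either treatment, and 3 were lower in H2O2-treated and 1 in untreated empty-vector cells. With library 11 left out, all 8 were called in treated cells, 2 of them higher and 6 lower, and 3 in untreated cells, 1 higher and 2 lower. Crtc3, a coactivator gene, was lower in both (log2 change -0.62, adjusted p = 0.00945 by edgeR in treated and -0.73, adjusted p = 0.00269 in untreated cells, or -0.53 without library 11). Of 15 CREB target genes tested (Crem is in both lists), 5 were higher and 3 lower in treated and 10 higher and 1 lower in untreated cells, and without library 11 it was 10 higher and 5 lower in both. Areg, a ligand of the EGF receptor, averaged 23.4 ± 3.66 CPM in H2O2-treated and 28.9 ± 9.18 CPM in untreated empty-vector cells (24.4 ± 2.53 CPM without library 11, n = 3), against 1.04 ± 0.18 CPM in H2O2-treated and 1.20 ± 0.181 CPM in untreated lentivirus cells. Nr4a1, an orphan nuclear receptor gene, averaged 4.14 ± 0.311 CPM in H2O2-treated and 11.3 ± 13.8 CPM in untreated empty-vector cells (4.40 ± 0.228 CPM without library 11, n = 3), against 0.733 ± 0.17 CPM in H2O2-treated and 0.697 ± 0.166 CPM in untreated lentivirus cells. Per1, a clock gene, was higher too (log2 change 0.80, adjusted p = 0.0148 in treated and 1.37, adjusted p = 0.000322 in untreated cells, or 0.92 without library 11). Ppargc1a, a coactivator gene of mitochondrial biogenesis, went the other way, with 1 count over the H2O2-treated and 4 over the untreated empty-vector libraries, all 4 in library 11, against 96 over the H2O2-treated and 94 over the untreated lentivirus libraries.

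The median log2 change was 0.80 over the CREB targets and -0.68 over the phosphodiesterases in H2O2-treated cells, beside -0.01 over all genes. The treated phosphodiesterase median is the value of Pde2a, which did not pass (SE 1.13, adjusted p = 0.676 by edgeR). The next value up was -0.03, for Pde7a. The CREB targets include Vgf and Ppargc1a, whose direction the filter fixed. In untreated cells the medians were 1.99 and -0.25 beside 0.03 over all genes, and the CREB target median was 0.92 without library 11. The lists are described by these values alone. In H2O2-treated against untreated cells, and in the difference of those responses between vectors, 0 genes of any pathway list passed by edgeR, with or without library 11. At an unadjusted p under 0.05, 16 libraries gave 18 of 61 list genes in empty-vector cells, beside 2120 of all 14445 genes. In lentivirus cells there were 1 and 255, and for the difference of responses 10 and 859. Without library 11, of 62 list genes and all 14602 genes, there were 13 and 1994, 11 and 2135, and 14 and 2391. Voom called Akap8l in empty-vector cells, beside 121 of all 14445 genes. DESeq2 called 0 list genes with 16 libraries. Without library 11 it called 4 in empty-vector cells (Akap2, Akap8l, Ep300 and Gpr161) and 6 for the difference of responses. That fit called 417 and 491 of all 14602 genes in these comparisons. The list genes named here other than Akap2 are named after their values were seen.

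Some markers of cell types also differed between vectors. Summed luminal markers, led by Krt8, spanned 921 to 1030 CPM in H2O2-treated and 940 to 1400 CPM in untreated empty-vector libraries, against 580 to 609 CPM in H2O2-treated and 565 to 618 CPM in untreated lentivirus libraries. The 3 tested, Krt8, Krt18 and Krt19, were called higher in both treatments. In untreated cells Krt8 overlapped between vectors, at 371 to 632 CPM against 403 to 448 CPM. Krt7 ran the other way, with 0 counts against 27 in treated and 1 against 24 in untreated cells. Cldn4 had 4 counts against 24 in treated and 109 against 27 in untreated cells. Summed immune markers, led by Cd68, spanned 228 to 258 CPM in H2O2-treated and 223 to 371 CPM in untreated empty-vector libraries, against 80.9 to 92.6 CPM in H2O2-treated and 77.6 to 82.9 CPM in untreated lentivirus libraries, with Ptprc at 0 in both empty-vector groups. Summed endothelial markers, led by Cdh5, spanned 3.53 to 4.73 CPM in H2O2-treated and 3.78 to 7.78 CPM in untreated empty-vector libraries, against 82.0 to 85.9 CPM in H2O2-treated and 79.9 to 85.2 CPM in untreated lentivirus libraries. That difference is Cdh5 alone, which is also among the genes named for likeness to Pkia. Pecam1 overlapped between vectors, at 0.345 to 0.547 CPM in H2O2-treated empty-vector libraries against 0.366 to 0.546 CPM in H2O2-treated lentivirus libraries, and at 0.353 to 3.32 CPM in untreated empty-vector libraries against 0.371 to 0.567 CPM in untreated lentivirus libraries. Kdr and Tek also overlapped and reached at most 0.203 CPM. Summed fibroblast markers spanned 17.0 to 20.4 CPM in H2O2-treated and 18.5 to 21.9 CPM in untreated empty-vector libraries, against 15.2 to 18.0 CPM in H2O2-treated and 13.4 to 14.8 CPM in untreated lentivirus libraries, so they overlapped in treated cells. Of 4 fibroblast genes tested, 2 were higher and 2 lower in empty-vector cells. Over all genes 22.1% were called higher and 20.0% lower in treated cells, and 29.0% and 24.3% in untreated cells. Col1a2 reached the filter's cutoff in 8 empty-vector libraries and 1 lentivirus library, and Dcn in 0 and 8. The directions of Col1a2 (higher) and Dcn (lower) are therefore a description. Pdgfra was higher, at 13.8 to 16.6 CPM in H2O2-treated empty-vector libraries against 4.14 to 6.16 CPM in H2O2-treated lentivirus libraries, and Col1a1 was lower, at 2.77 to 3.78 CPM against 8.69 to 10.2 CPM. Summed basal markers, led by Trp63, spanned 0.194 to 0.449 CPM in H2O2-treated and 0.223 to 1.92 CPM in untreated empty-vector libraries. In lentivirus libraries they spanned 4.44 to 4.95 CPM in H2O2-treated and 3.95 to 5.02 CPM in untreated cells. Trp63, the only basal gene tested, was called lower in empty-vector cells in both treatments. Its log2 change was -4.80 in treated and -3.42 in untreated cells, or -4.61 in untreated cells without library 11. Krt14 was at 0 in 3 of the 4 groups, and adipocyte markers summed to at most 0.13 CPM. The part of the cell type markers in the differences of the PKA genes was not tested.

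**Figure D5:**
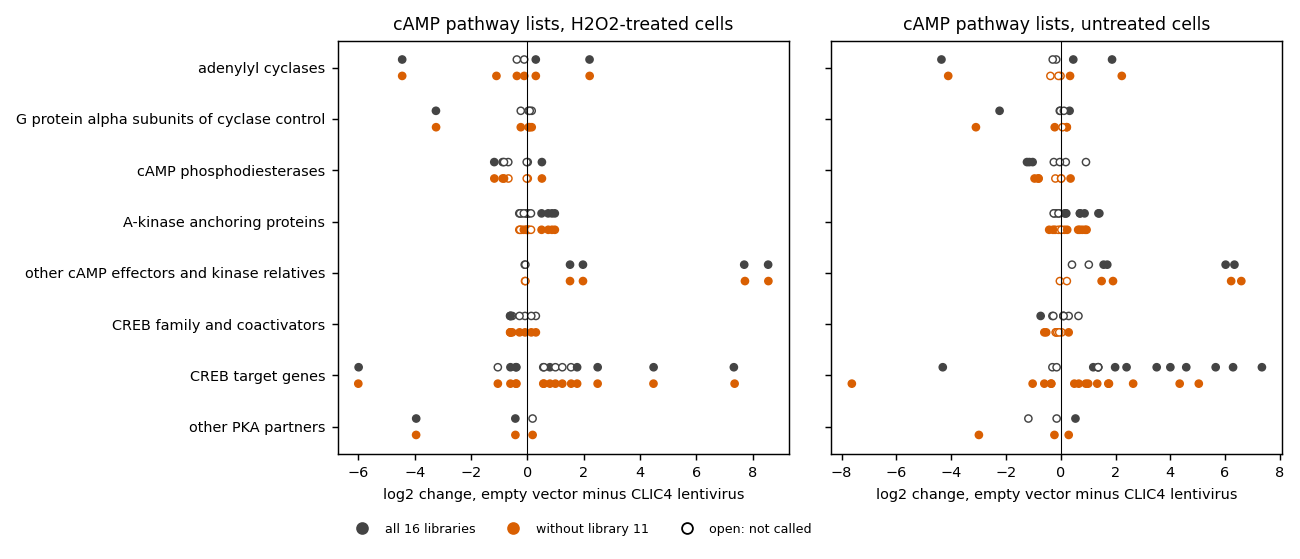
Log2 change, empty vector minus CLIC4 lentivirus (horizontal axis), of every tested gene of the cAMP pathway lists (vertical axis) in H2O2-treated and untreated cells, from the fit with all 16 libraries and without library 11. Filled symbols passed the test. Popdc3 and Rapgef4, of the effectors, and the CREB target Vgf lie far to the right in both treatments. The phosphodiesterases lie on both sides of 0, more of them to the left. For genes at or near 0 in 1 of the vectors, such as Rapgef4, Popdc3, Adcy5 and Ppargc1a, the fitted change depends on the prior count of the fit.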

How the data were processed

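RNA was measured by sequencing in 16 libraries of 6DT1 cells. Per the submitters' processing notes, cutadapt, STAR and RSEM were used with the genome build mm10, while for strandedness, annotation and versions the sources used here give nothing. The deposited count table holds whole-number counts by the authors for 25745 genes, and the deposited FPKM table holds 25372 genes scaled by the authors to length and depth. No table column was left without a sample. Positions come from GENCODE release 21 (mm10) and promoters from RefSeq (GRCm38.p6). Without strand, overlapping genes cannot be told apart.

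The PKA genes, the pathway lists and the markers were chosen with earlier results of these data known. The test was edgeR 4.0.16 (R 4.3.3), quasi-likelihood with TMM scaling, robust fitting and filterByExpr, with 1 coefficient per group over 16 libraries. P-values were adjusted (Benjamini-Hochberg) over the 14445 genes that passed (14602 without library 11), and under 0.05 was called. Standard errors are the log2 change over the square root of F. All 8 measured members passed the filter, Pkia through the 8 lentivirus libraries and Prkar1b through 4 libraries. Vector and H2O2 comparisons share groups. Libraries differed within groups by more than sampling noise (chi-square per degree of freedom at least 4.79).

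Named genes were the PKA genes, Clic4, up to 4 called members of each list by adjusted p in the untreated vector comparison, the 5 genes most like Pkia and its 3 nearest neighbours on each side. Alternatives were RLE factors, DESeq2 1.42.0, limma 3.58.1 (voom with quality weights, or on log2(FPKM + 1) or log2(FPKM + 0.1) with FPKM of at least 0.5 in 4 libraries), other filters, compared groups alone and leaving out each library. Figures were drawn with matplotlib 3.10.9.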

Additional observations from a re-analysis of the deposited data

Results flagged for a closer look

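Within groups of 4 libraries, 6 of 30 sets of values had 1 library far from the others by Dixon's test, and in all 6 it was library 11 of the untreated empty-vector cells. Chance gives about 1 in 20 such sets, and the 6 share 1 library. Library 11 was high for Prkaca (133 CPM), Prkar1a (658 CPM), Prkar2b (254 CPM) and Prkar1b (5.68 CPM). It was low for Prkacb (81.3 CPM) and Prkar2a (28.7 CPM). The high value of Prkaca turns to a low one in FPKM. The cause was not tested.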

How the results depend on the processing

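Untreated cells had 3 PKA genes called between vectors, and 6 under limma voom with quality weights and in 3 fits chosen after seeing the data, each with library 11 left out (DESeq2, compared groups alone, RLE). Leaving out each library gave 3 to 6, the 6 without library 11. H2O2-treated cells had 3, and 5 under voom, with the compared groups alone and in the added DESeq2 and RLE fits. For treated cells the added fit of the compared groups alone is the same fit again, since library 11 is untreated. Leaving out each library gave 2 to 5 there. The coefficient of variation that edgeR estimated in common over genes was 23.1% with 16 libraries and 5.28% without library 11. In H2O2-treated against untreated empty-vector cells voom gave 1 gene in place of 0 (Prkar1b, log2 change -1.52, adjusted p = 0.0325), a gene that passed the filter only through the untreated empty-vector group and so had to be lower after H2O2. No called log2 change reversed. Among 576 log2 changes with a library left out, 566 kept their side of the threshold, 6 passed it and 4 lost it. Among 293 from the other settings listed in the methods, 276 kept it, 12 passed and 5 lost it. The treated Prkacb call was among those lost, with no filter (adjusted p = 0.06) and in the 3 FPKM fits (0.149 to 0.228), as was untreated Prkar1b with the compared groups alone (0.0524). In untreated cells Prkacb passed under RLE (0.0435) and DESeq2 (0.0297), Pkig under DESeq2 (0.0384) and Prkar2b without library 12 (0.0409). The bound on Pkia spanned 459 to 655-fold in untreated and 520 to 722-fold in treated cells when libraries were left out. Counts in place of FPKM moved 25 of 32 class shares by more than 1 SD. No paired analysis was possible because no library number is shared by groups. The cause of these changes was not tested, and depth limits Prkar1b, with 4 to 23 counts outside library 11.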
